A study of Rattus norvegicus with 18 samples.

Results

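Small RNA of rat somatosensory cortex was compared between postnatal day 14 (P14) and postnatal day 28 (P28), the last interval of a developmental series that runs from embryonic day 10. The comparison took the 4 libraries whose labels give these stages, of 18 libraries in all. Each stage was 1 tissue sample from Sprague Dawley rats, labelled as cortex, with no treatment or transgene in any group, and each tissue sample was sequenced in 2 runs that the labels call technical replicates. The number of animals behind a tissue sample is not given in the sources used here. Per the study's methods, the tissue was mainly the somatosensory part of the dorsolateral cortex, with meninges and subcortical tissue dissected away.

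MicroRNAs (miRNAs) are short RNAs cut from a hairpin precursor, whose arms give a 5p and a 3p product. An Argonaute protein holds the mature miRNA, and pairing of its seed, bases 2 to 8 from the 5′ end, with messenger RNAs lowers their translation or stability. Between P14 and P28 a rodent cortex myelinates, refines its synapses and passes through sensory critical periods. MiRNAs are known for parts in each of these, such as miR-219a and miR-338 in oligodendrocyte maturation and miR-132 and miR-134 in the growth of dendritic spines.

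The mature sequences below belong to the miRNAs on which the comparison turns, and are shown so that families with a shared seed can be seen. They are RefSeq sequences of the rat genome build GRCr8, written with T as in the sequenced tags, and the capitals mark the seed. The first 10 were higher at P28, and the last 3 are those with the largest falls among miRNAs of at least 50 TPM, a unit explained below. The seed AACAGTC is shared by miR-132-3p and miR-212-3p, and AGCACCA by the 3 members of the miR-29 family.
miR-132-3p: tAACAGTCtacagccatggtcg
miR-212-3p: tAACAGTCtccagtcacggcca
miR-132-5p: aCCGTGGCtttcgattgttact
miR-212-5p: aCCTTGGCtctagactgcttactg
miR-29a-3p: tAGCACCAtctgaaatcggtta
miR-29b-3p: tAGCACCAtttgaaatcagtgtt
miR-29c-3p: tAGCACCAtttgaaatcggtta
miR-219a-2-3p: aGAATTGTggctggacatctgt
miR-219a-5p: tGATTGTCcaaacgcaattct
miR-338-3p: tCCAGCATcagtgattttgttga
miR-296-3p: gAGGGTTGggtggaggctctcc
miR-298-5p: gGCAGAGGagggctgttcttccc
miR-134-5p: tGTGACTGgttgaccagagggg

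The libraries held 4899010 (P14 run 1), 15806174 (P14 run 2), 10002228 (P28 run 1) and 16590379 (P28 run 2) clean reads, so that the shallowest library limited what could be counted at P14. Levels were expressed as TPM, the reads of a tag or miRNA per 1000000 clean reads of its library. Tags seen in both runs of a stage carried 95.6% to 97.9% of the reads of these libraries, and tags matched to a known mature miRNA carried 82.3% to 88.4%. Of 694 known mature sequences, 373 had a mean of at least 10 reads over the 4 libraries and were compared, and all 373 had reads in every library. The 10 most abundant miRNAs, led by miR-128-3p and the let-7 family, took 56.6% to 66.4% of the reads, and since all levels are parts of 1 total, a fall of an abundant miRNA raises the others.

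With 1 tissue sample a stage, no test between animals can be made, and no p-value is given. A miRNA was called higher or lower when it was past 2-fold in the same direction within run 1 and within run 2. By this rule 35 miRNAs were higher at P28 (9.38% of those compared) and 23 were lower (6.17%), 58 in all or 15.5%. Run 1 alone put 111 past 2-fold and run 2 alone 112, of which 105 were past 2-fold in 1 run alone and 1 was past it in opposite directions. The sign was the same in both runs for 249 of the 373. The median size of the log2 difference between stages was 0.65 in run 1 and 0.55 in run 2, while the runs of a single tissue sample lay apart by a median of 1.12 at P14 and 0.91 at P28.

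The 2 tissue samples at P0 are the only ones in the series that share a stage, and they set a scale for the spread between tissue samples of an age. By the same rule, 88 of 366 miRNAs (24%) were past 2-fold between these P0 samples in both runs, a larger share than between P14 and P28. The median size of the log2 difference between the P0 samples was 1.51 in run 1 and 0.83 in run 2, so this scale differs with the run. The share called between P14 and P28 is thus no larger than that between samples of a single age, and age and tissue sample cannot be told apart for any of the miRNAs below. Of the 58 called miRNAs, 48 had a value at P0 and 14 of them were also past 2-fold in both runs between the P0 samples. For 21 of the 58, the smaller of the run differences between P14 and P28 was still larger than the larger of those between the P0 samples.

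**Figure D1:**
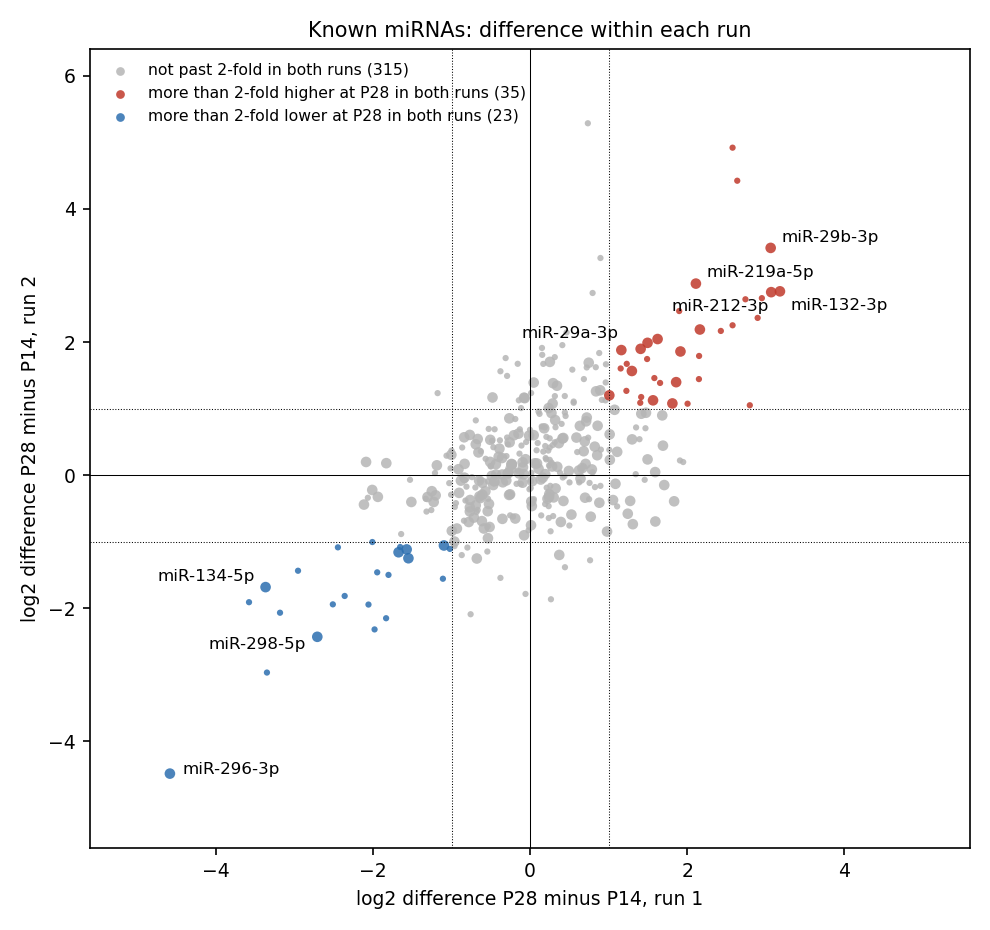
Log2 difference P28 minus P14 of each known miRNA in run 1 (x axis) and run 2 (y axis), with large points for a mean of at least 50 TPM and dotted lines at 2-fold. The 35 red points lie past 2-fold higher and the 23 blue points past 2-fold lower in both runs, while the other 315 points scatter around 0.

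Of the 179 miRNAs with a mean of at least 50 TPM, 15 were higher (8.38%) and 7 were lower (3.91%) at P28. In 17 of these 22 the P14 and P28 libraries did not overlap, and in 5 they did because the runs themselves were far apart. For 10 of the 22 the difference was larger than that between the P0 samples in the sense given above. These were miR-132-3p, miR-132-5p, miR-212-3p, miR-29b-3p, miR-219a-5p and miR-674-5p among the rises, and miR-296-3p, miR-298-5p, miR-301a-5p and miR-488-5p among the falls.

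The products of the Mir132 and Mir212 hairpins were among the largest rises. These neighbouring genes lie on the plus strand of chromosome 10, with mature miR-132-3p at chr10:60522091-60522112 and miR-212-3p at chr10:60521811-60521832 of GRCr8, and are known as targets of the activity-dependent factor CREB. MiR-132-3p, a promoter of dendritic growth, was at 96.1 and 105 TPM at P14 (run 1 and run 2) and at 874 and 716 TPM at P28. The libraries of each stage lay close together and far from those of the other stage, at log2 differences of 3.18 and 2.76. MiR-212-3p, with the same seed, was at 10.2 and 36.5 TPM at P14 and at 86.6 and 246 TPM at P28, or 3.07 and 2.75 on the log2 scale. Its run 2 level was higher than its run 1 level at both stages, without overlap of the stages.

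The 5p arms of both hairpins were also higher. MiR-132-5p was at 102 and 70.7 TPM at P14 and at 457 and 322 TPM at P28 (log2 differences 2.16 and 2.19). MiR-212-5p, the more abundant arm of its hairpin, was at 83.5 and 182 TPM at P14 and at 315 and 660 TPM at P28 (1.92 and 1.86). All 4 products thus had both P28 libraries above both P14 libraries. The second P0 sample differed from the first by -1.33 and -0.69 for miR-132-3p and by -1.37 and -0.55 for miR-212-3p, less in size than P28 from P14. For miR-212-5p that difference was 1.92 in run 1, as large as between P14 and P28, and 0.05 in run 2.

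The miR-29 family was higher in all 3 of its members, where 9.38% of all miRNAs compared were higher. MiR-29 is known to rise in maturing neurons and to target messengers of collagens and of DNA methyltransferases. MiR-29a-3p (chr4:60617968-60617989), the most abundant miRNA called, was at 16128 and 5431 TPM at P14 and at 36093 and 19985 TPM at P28. The P28 libraries were both above the P14 libraries, although P14 run 1 and P28 run 2 were close, and the log2 differences were 1.16 and 1.88. MiR-29b-3p was at 233 and 51.9 TPM at P14 and at 1949 and 554 TPM at P28 (3.06 and 3.41). MiR-29c-3p (chr13:109099412-109099433) was at 478 and 362 TPM at P14 and at 1269 and 1349 TPM at P28 (1.41 and 1.90).

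The ratio between stages was thus largest for miR-29b-3p, the member with the lowest mean over the 4 libraries, although in P28 run 1 it was above miR-29c-3p. Its sequence is read from genes on 2 chromosomes, at chr4:60618342-60618364 beside Mir29a and at chr13:109098882-109098904 beside Mir29c, with 291 and 447 bases between the hairpins, and tags cannot be given to either gene. The rare 5p arms miR-29a-5p and miR-29b-5p were also past 2-fold higher, with 2 and 2 reads at P14 against 30 and 79 at P28 for the first and with 6 and 12 against 49 and 72 for the second. Both passed the filter on reads only through their P28 reads, which favours a call of higher, so they add little to the family. MiR-29c-5p, with 14 and 29 reads at P14 against 54 and 110 at P28, was past 2-fold in run 2 alone (0.88 and 1.84). Among tags seen in both runs of a stage, those identical to the whole miR-29b-3p sequence had 0 reads in both P14 libraries and 26 and 100 at P28, so its level rests mostly on tags with other ends. The second P0 sample differed from the first by -2.51 and -1.39 for miR-29a-3p and by -1.98 and -0.59 for miR-29c-3p, in size more than P28 from P14 in run 1 alone.

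The miRNAs of oligodendrocytes and myelin were higher in 5 of the 6 members measured, with medians of 1.59 in run 1 and 2.02 in run 2, beside 0.05 and 0.13 over all 373 miRNAs, of which 9.38% were higher. The 5 include both arms of the Mir219-2 hairpin and both arms of Mir338, so they are not all separate members. MiR-219 and miR-338 are known to release oligodendrocyte precursors from proliferation by targeting factors that hold them undifferentiated. MiR-219a-2-3p (chr3:33516517-33516538), the most abundant of the group, was at 6221 and 835 TPM at P14 and at 17547 and 3314 TPM at P28. Within each run P28 was the higher stage (1.496 and 1.99), but P14 run 1 was above P28 run 2, so the libraries overlapped. MiR-219a-5p, from the other arm, was at 24.5 and 19.9 TPM at P14 and at 106 and 146 TPM at P28 (2.11 and 2.88), without overlap.

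MiR-338-3p (chr10:105796345-105796367) was at 21.8 and 48.1 TPM at P14 and at 67.6 and 199 TPM at P28 (1.62 and 2.05). Counted by tags identical to the mature sequence, with 3 and 9 reads at P14 and 3 and 40 at P28, it was not called and its direction in run 1 turned (-1.03 and 2.02). Its partner arm miR-338-5p was rare, with 3 and 6 reads at P14 and 44 and 146 reads at P28. It passed the filter on reads only through P28, which favours a call of higher. MiR-23a-3p, which is known to lower lamin B1 in oligodendrocytes, was at 247 and 243 TPM at P14 and at 732 and 529 TPM at P28 (1.57 and 1.12). With the median difference of all miRNAs set to 0, its run 2 difference was 0.994, just under 2-fold, which leaves 4 of the 6 members called. The sixth member, miR-219a-1-3p, stayed under 10 TPM in each library and moved in opposite directions (0.24 and -0.47). In tissue such as this, more cells of a type and more of its RNA in each cell cannot be told apart. The second P0 sample differed from the first by -4.58 and -1.16 for miR-219a-2-3p, in size more than P28 from P14 in run 1 alone. For miR-338-3p it differed by -0.24 and -2.33, more in run 2 alone. For miR-23a-3p it differed by -1.25 and 0.15, less in each run, although -1.25 is larger in size than the run 2 difference of 1.12.

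Further rises were found in other roles. MiR-344b-5p, of a family expressed in brain, was at 44.1 and 163 TPM at P14 and at 155 and 343 TPM at P28 (1.81 and 1.08), with overlap. With the median difference of all miRNAs set to 0 its run 2 difference was 0.948, and it was not called. MiR-674-5p was at 49.8 and 55.5 TPM at P14 and at 181 and 146 TPM at P28 (1.86 and 1.40). MiR-148b-3p was at 40.6 and 42.8 TPM at P14 and at 99.98 and 127 TPM at P28 (1.30 and 1.57). The runs of a stage lay close together for the last 2, and the stages did not overlap. The second P0 sample differed from the first by 1.37 and -2.39 for miR-344b-5p and by 0.79 and 2.65 for miR-148b-3p, in run 2 more in size than P28 from P14. For miR-674-5p it differed by -0.57 and -1.05, less than P28 from P14.

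**Figure D2:**
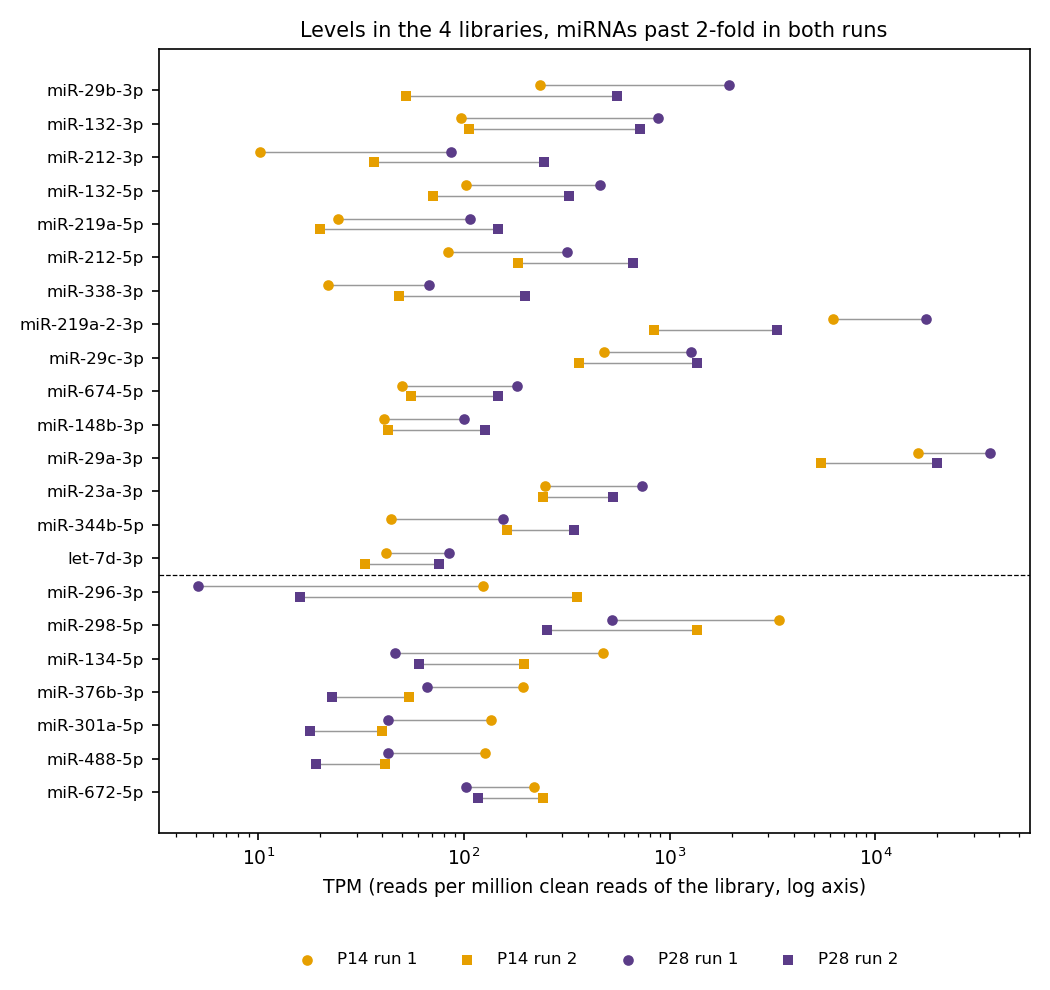
TPM (log x axis) of the 22 miRNAs with a mean of at least 50 TPM that were past 2-fold in both runs, with a circle for run 1, a square for run 2 and a grey line joining P14 (orange) to P28 (purple) within a run. Above the dashed line P28 lies to the right of P14 in both runs (15 miRNAs), and below it to the left (7 miRNAs). The gap between runs is widest for miR-219a-2-3p.

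The largest fall was that of miR-296-3p, which stood at 124 and 356 TPM at P14 and at 5.10 and 15.9 TPM at P28. The log2 differences were -4.59 and -4.48, so that P14 was 24.04-fold and 22.4-fold higher, with 51 and 263 reads left at P28. Its neighbour miR-298-5p was at 3412 and 1360 TPM at P14 and at 521 and 253 TPM at P28 (-2.71 and -2.43). The hairpins lie 375 bases apart on the minus strand of chromosome 3, with miR-296-3p at chr3:183470079-183470100 and miR-298-5p at chr3:183470571-183470593. Both belong to the imprinted Gnas region. MiR-298-3p was lower as well (-1.11 and -1.56), whereas miR-296-5p, at a mean of 5.28 TPM, was at -0.22 and -0.62.

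The level of miR-296-3p rests on a single tag. An 18-base tag, 4 bases shorter than the mature sequence, made up 98.0% to 99.7% of its reads in the 4 libraries. Among tags seen in both runs of a stage, those identical to the full mature sequence had 0 reads in all 4 libraries, so the fall was measured on other tags. For miR-298-5p the leading tag of each library, 18 bases long in P28 run 1 and 20 in the others, held 34.7% to 37.8% of reads, and 99.3% to 99.7% of reads began at the mature 5′ end.

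MiR-134-5p, a brain miRNA known to limit the growth of dendritic spines, was at 476 and 195 TPM at P14 and at 46.0 and 60.6 TPM at P28. Both P28 libraries were below both P14 libraries, with log2 differences of -3.37 and -1.68 that differed between the runs. The second P0 sample, however, differed from the first by -4.24 in run 1 and by 0.48 in run 2, in size more than P28 from P14 in run 1. It lies at chr6:134570320-134570341, in the imprinted Dlk1-Dio3 cluster.

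Of 44 miRNAs of the Dlk1-Dio3 cluster, a maternally expressed imprinted cluster with many brain miRNAs, 6 were lower and 0 were higher, where 6.17% of all miRNAs compared were lower. The medians of the cluster were -0.50 in run 1 and -0.23 in run 2, beside 0.05 and 0.13 over all miRNAs. MiR-376b-3p was at 194 and 54.0 TPM at P14 and at 66.1 and 22.7 TPM at P28 (-1.55 and -1.25), with overlap between P14 run 2 and P28 run 1. The other 4 were rarer, and of these miR-758-5p was at 72.1 and 20.7 TPM at P14 and at 12.6 and 5.36 TPM at P28 (-2.51 and -1.94), followed by miR-154-3p, miR-666-5p and miR-544-3p. The remaining 38 members, among them miR-127-3p (-0.47 and -0.15), were not past 2-fold in both runs. Most hairpins were read by 1 arm. Outside the list, miR-667-5p (-2.06 and -1.94), miR-770-3p (-2.01 and -1.005), miR-673-5p and miR-1188-5p, on the same stretch of chromosome 6, were also lower. Of partner arms not called, miR-376b-5p (0.91 and 1.13) and miR-154-5p (0.90 and 0.38) went up and miR-666-3p (-1.32 and -0.55) went down. For miR-376b-3p the second P0 sample differed from the first by -5.47 and -2.08, in size more than P28 from P14.

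The last 3 falls came from other loci. MiR-301a-5p, the partner strand of miR-301a, was at 136 and 39.7 TPM at P14 and at 42.5 and 17.8 TPM at P28 (-1.68 and -1.16). MiR-488-5p was at 127 and 41.4 TPM at P14 and at 42.7 and 19.1 TPM at P28 (-1.57 and -1.12). In both, run 2 was the lower run at each stage, and P14 run 2 lay beside P28 run 1. Counted by tags identical to the mature sequence, both missed 2-fold in run 2 (-0.77 for miR-301a-5p and -0.92 for miR-488-5p) and were not called. The other arm of the second hairpin, miR-488-3p, differed in sign between the runs (-1.83 and 0.18). MiR-672-5p, on the X chromosome at chrX:73192351-73192373, was at 218.8 and 242 TPM at P14 and at 102 and 116 TPM at P28 (-1.10 and -1.06), without overlap. Counted by tags identical to the mature sequence it was not called, at a mean difference of -0.09, and the second P0 sample differed from the first by -1.33 and -0.16.

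Several miRNAs lay near the limit of 2-fold. Just inside it were let-7d-3p, at 41.8 and 32.8 TPM at P14 and 84.4 and 75.5 TPM at P28 (1.01 and 1.20), and miR-672-5p. Just outside it were miR-22-5p (1.08 and 0.98), miR-206-3p (-0.96 and -0.998), miR-222-3p (1.48 and 0.94) and miR-23b-3p (1.42 and 0.92). The call of these miRNAs depends on less than 0.1 of a log2 unit.

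Most of the abundant miRNAs of the cortex were not called. MiR-128-3p, the most abundant of all and enriched in neurons, was at 221394 and 126087 TPM at P14 and at 173984 and 117033 TPM at P28 (-0.35 and -0.11). MiR-124, which is specific to neurons, was at 33602 and 20473 TPM at P14 and at 21156 and 29838 TPM at P28, and its differences had opposite signs (-0.67 and 0.54). Of the 16 neuron-enriched miRNAs measured, 3 were higher (miR-132-3p, miR-212-5p and miR-344b-5p), 1 was lower (miR-134-5p) and 12 were not called, beside 9.38% higher and 6.17% lower of all miRNAs compared, and the medians were 0.41 and 0.57. Without miR-344b-5p, whose call was lost with the median set to 0, 2 were higher. MiR-9a-5p, known from neural progenitors and neurons, was within 0.1 of 0 in both runs (0.03 and -0.09), whereas its partner miR-9a-3p was at 1.59 in run 1 and 0.05 in run 2.

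Of 7 activity-regulated miRNAs measured, 2 were higher and 1 was lower, beside 9.38% and 6.17% of all miRNAs compared, and these 3 are also in the neuron-enriched list. The other 4 were not past 2-fold in both runs, as for miR-485-5p (1.11 and 0.35), which targets a synaptic vesicle protein. Run 1 alone would have called miR-485-5p and miR-9a-3p as higher.

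The let-7 family showed how far the runs could part. Let-7 miRNAs accumulate as cells differentiate, and 0 of the 8 family members measured were called in either direction, with medians of 0.36 and 0.12. Of all miRNAs compared, 15.5% were called, which is about 1 in 8 members. Let-7d-5p was at 43660 and 20507 TPM at P14 and at 92790 and 18742 TPM at P28, past 2-fold in run 1 and slightly down in run 2 (1.09 and -0.13). Let-7b-5p went from 8306 to 17277 TPM in run 1 and from 79110 to 61038 TPM in run 2 (1.06 and -0.37). The level of let-7b-5p in run 2 was above that in run 1 at each stage by more than the stages differed.

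Of 6 opposite arms of let-7 and miR-98 hairpins measured, 4 were past 2-fold higher in both runs, beside 9.38% of all miRNAs compared, in a set that was looked at after its values were seen: let-7d-3p (above), let-7a-1-3p (1.154 and 1.60), let-7b-3p (1.49 and 1.75) and let-7e-3p (2 and 3 reads at P14 against 27 and 16 at P28). Let-7d-3p missed 2-fold in run 1 (0.961) with the median of all miRNAs set to 0, which leaves 3 of the 6. The other 2 were not called, miR-98-3p at -0.38 and 1.56 and let-7i-3p at -0.13 and 0.69. Of the 4, all but let-7d-3p were rare, with 2 to 17 reads in P14 run 1 and 27 to 79 reads in P28 run 1. Let-7e-3p passed the filter on reads only through P28, which favours a call of higher. Both arms of miR-34a, a target of p53 that was likewise named after its values were seen, were higher, with 2 and 84 reads at P14 against 39 and 560 at P28 for miR-34a-5p, and with log2 differences of 1.58 and 1.46 for miR-34a-3p.

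**Figure D3:**
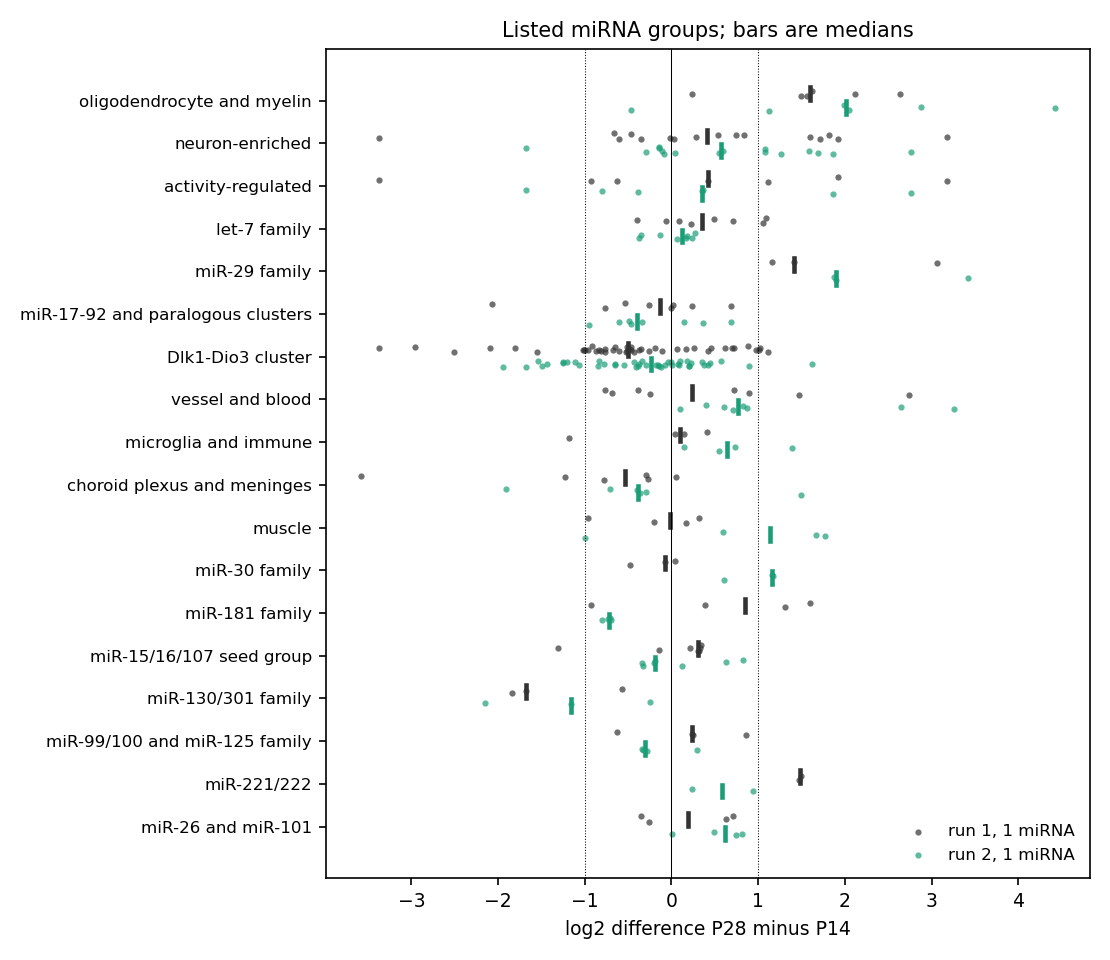
Log2 difference P28 minus P14 (x axis) of each measured member of the miRNA lists, with run 1 in black, run 2 in green, medians as bars and dotted lines at 2-fold. The oligodendrocyte and miR-29 lists have both medians past 2-fold higher, the miR-130 and miR-301 list has both past 2-fold lower, and in the other lists at least 1 median lies within 2-fold.

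The remaining lists held few calls. The miR-130 and miR-301 family was lower in 2 of 3 members, where 6.17% of all miRNAs were lower. They were miR-301a-5p, not called by identical tags, and miR-130b-3p, the second at 34.3 and 7.59 TPM at P14 and at 9.598 and 1.69 TPM at P28 (-1.83 and -2.15). MiR-301a was counted by its 5p arm, opposite the arm that carries the seed of the family. Beside the 15.5% called of all miRNAs, lists of 2 to 8 members would hold few calls or none. No member was called among 8 of the miR-17-92 and paralogous clusters, 3 of the miR-30 family, 4 of the miR-181 family, 7 of the seed group of miR-15, miR-16 and miR-107, 4 of the miR-99/100 and miR-125 family, 2 of miR-221 and miR-222 and 4 of miR-26 and miR-101. For miR-221 and miR-222 the medians were 1.49 and 0.59, and for the miR-30 family -0.07 and 1.16, so that in each of these families 1 run was past 2-fold and the other was not.

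Lists that mark other cell types were read as a check of the dissection, and their few calls stand beside 9.38% higher and 6.17% lower of all miRNAs compared. Of 8 vessel and blood miRNAs 1 was higher, the red cell miRNA miR-144-3p, with 1 and 4 reads at P14 against 20 and 29 at P28, and their summed level was 4247 and 963 TPM at P14 and 2606 and 1443 TPM at P28. MiR-144-3p passed the filter on reads only through P28. None of 4 microglial and immune miRNAs was called, at a summed 2506 and 866 TPM at P14 and 2953 and 1464 TPM at P28, and none of 4 muscle miRNAs, at 829 and 2527 TPM at P14 and 541 and 1515 TPM at P28. Of 6 measured miRNAs of choroid plexus and meninges 1 was lower, miR-449a-5p (-3.58 and -1.91), known from ciliated epithelium and at most at 5.06 TPM, and the summed level was 2044 and 2384 TPM at P14 and 1203 and 1611 TPM at P28. The choroid plexus miRNA miR-204-5p was at 36.5 and 91.8 TPM at P14 and at 15.6 and 69.4 TPM at P28. MiR-211-5p, miR-200a-5p, miR-200b-5p, miR-141-3p and the microglial miR-223-3p were under the filter on reads. The part of these other cells in the calls above was not tested.

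The other stages place the P14 to P28 step in the course of development. Of the 15 miRNAs of at least 50 TPM that were higher at P28, 12 had their highest mean at P28 among the 9 tissue samples of the series, and for 8 both P28 libraries were above every other library. Of all 179 miRNAs of at least 50 TPM, 22.3% had their highest mean at P28. Because the 15 were chosen for P28 above P14, a high rank of P28 was favoured and a P14 above P7 was disfavoured. The shares of the 179 are thus no fair scale for the 15. For 12 of the 15 the level was also higher at P14 than at P7 in both runs, as it was for 55.3% of the 179. The E10 and E13 libraries are labelled forebrain, so that tissue and stage cannot be told apart in comparisons with them, and among the 7 cortex samples alone 14 of the 15 had their highest mean at P28 (29.1% of the 179). MiR-132-3p had means of 28.1 TPM at P3, 42.1 TPM at P7, 101 TPM at P14 and 795 TPM at P28, so that the last step was the largest of these. MiR-219a-5p, by contrast, had its highest mean at E10 (1067 TPM) and was lower at P14 than at P7 (22.2 against 54.7 TPM) before it reached 126.3 TPM at P28. The highest means of miR-674-5p and miR-148b-3p were likewise at E10, at 1137 and 335 TPM.

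The falls had more varied courses. For 5 of the 7 the mean at P28 was the lowest of the 9 tissue samples, and for miR-296-3p, miR-298-5p and miR-672-5p both P28 libraries were below every other library, where 11.7% of the 179 had their lowest mean at P28. MiR-296-3p went down over the postnatal stages, from 940 TPM at P3 to 240 TPM at P14 and 10.5 TPM at P28. MiR-298-5p, in contrast, was at 2008 TPM at P7 and at 2386 TPM at P14 before 387 TPM at P28. MiR-134-5p was high at P7 and P14 (276 and 335 TPM) and at P28 (53.3 TPM) was within the range of earlier stages. Only 2 of the 7 were also lower at P14 than at P7 in both runs, as were 14.5% of the 179. The 7 were chosen for P28 below P14, which by itself favours a low rank of P28 and a high P14.

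**Figure D4:**
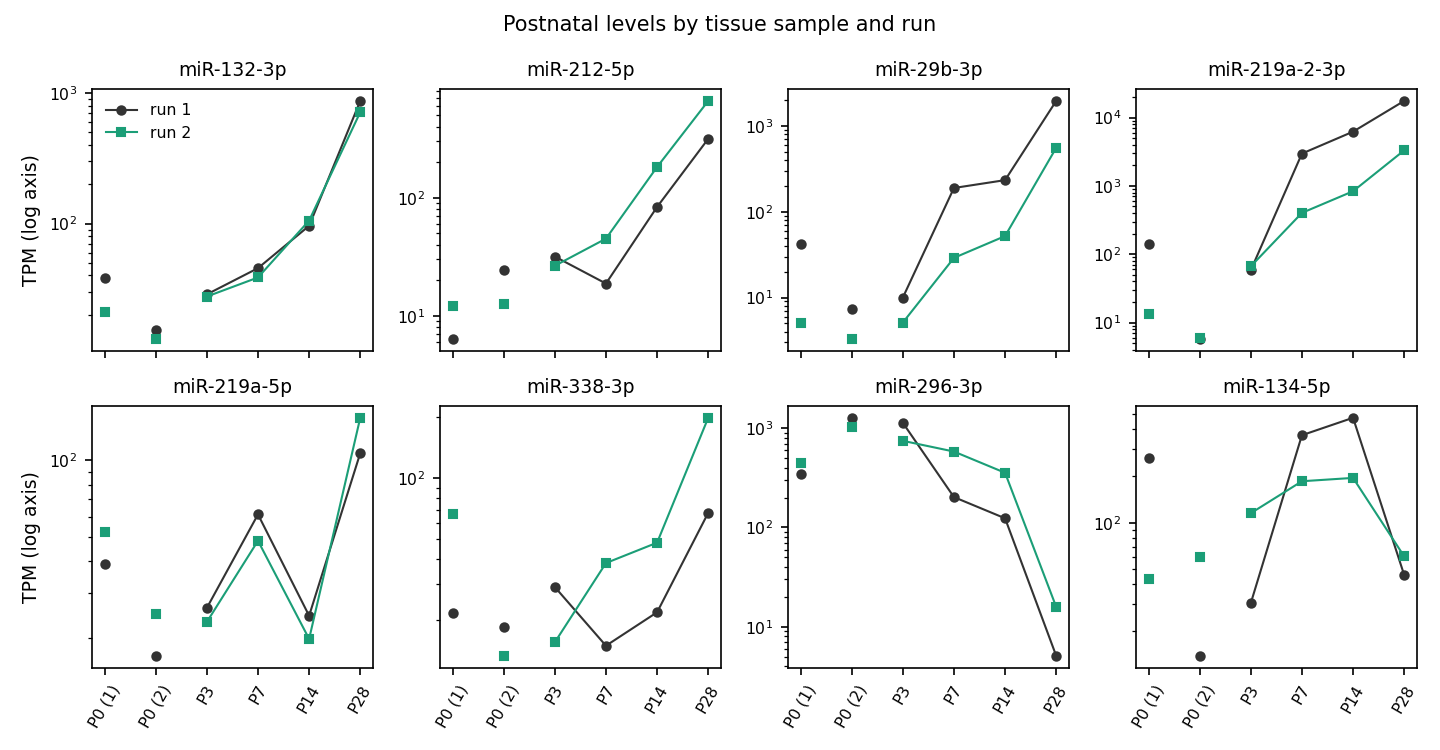
TPM (log y axis, scaled per panel) of 8 miRNAs in the 2 P0 tissue samples and at P3, P7, P14 and P28, with run 1 in black and run 2 in green. MiR-132-3p and miR-212-5p climb through P14 to P28 in both runs, miR-219a-5p dips at P14, and miR-296-3p and miR-134-5p drop at P28, while the P0 samples show how far 2 samples of an age can lie apart.

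The ends of miRNA reads were compared because a shifted 5′ end moves the seed. Over all matched reads, 95.3% and 95.7% began at the mature 5′ end at P14 and 95.5% and 96.0% at P28. Reads short of the mature 3′ end made up 46.3% and 38.3% at P14 and 39.5% and 33.3% at P28, and reads past it 17.2% and 22.1% at P14 and 21.8% and 24.03% at P28. Reads that stopped short were fewer at P28 in both runs, yet the runs of P14 were further apart than the stages were in either run, so no end class was called. At these depths the 95% Wilson interval of such a share, which covers counting error only and takes PCR reads as independent molecules, spans under 0.1 percentage points.

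Single miRNAs differed more in their ends. For miR-132-5p the share of reads with the mature 5′ end was 47.6% and 77.1% at P14 and 67.7% and 83.2% at P28, nearly all other reads starting before it, and in P14 run 1 the leading tag started 1 base earlier. The share was higher at P28 in each run, within the gap between the runs. For miR-29b-3p it was 92.6% and 93.9% at P14 and 95.7% and 96.2% at P28, a gap larger than that between the runs. By the same rule the share was higher for miR-148b-3p (97.5% and 98.1% at P14, 99.0% and 98.95% at P28) and lower for let-7d-3p (92.2% and 93.4% at P14, 90.5% and 90.97% at P28). It was also lower for miR-212-3p (100% and 100% at P14, 97.5% and 95.4% at P28), but P14 run 1 held 50 reads of it, and rare tags with another start are dropped at P14 in both runs unless seen in both, so these shares are not compared further.

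A-to-G changes within miRNA tags were counted because adenosine deaminases (ADARs) turn adenosine into inosine, which is read as G, and in a seed this can change the targets. Positions are counted from 1 at the mature 5′ end. Both sequences below have their change in the seed, and each is shown first as in RefSeq and then with the change, with the base in capitals.
miR-376b-3p: atcatAgaggaacatccactt
miR-376b-3p with A6G: atcatGgaggaacatccactt
miR-411-5p: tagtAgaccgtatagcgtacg
miR-411-5p with A5G: tagtGgaccgtatagcgtacg

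Of 8 changes compared, 3 had a share that was higher at P28 in both runs by more than the runs of a stage differed, while 0 were lower by this rule. One of the 3, that of miR-137-3p, had a difference of 0 with tags of the mature length only. The share of miR-376b-3p reads with A6G was 75.6% (95% Wilson interval 74.2 to 76.9) and 76.3% (74.8 to 77.7) at P14 and 87.5% (86.5 to 88.4) and 87.0% (85.7 to 88.2) at P28. The runs of each stage thus agree within counting error and the stages do not overlap. For miR-411-5p the share with A5G was 6.21% (5.97 to 6.46) and 4.95% (4.52 to 5.42) at P14 and 13.1% (12.7 to 13.4) and 11.03% (10.4 to 11.7) at P28. The third, A16G of miR-137-3p, rests on 20, 32, 36 and 38 changed reads, and its shares of 2.12%, 2.33%, 2.76% and 3.30% have overlapping intervals.

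For the other 5 changes, 4 of them higher at P28 in both runs, the runs of at least 1 stage differed by more than the stages did in at least 1 run. The share of A16G in miR-378a-3p was 4.23% and 4.89% at P14 and 6.15% and 10.5% at P28, with separate intervals of the stages but a wide gap between the P28 runs. With tags of the mature length only, the mean difference of this share was far smaller. That of its A6G was 0.681% and 1.53% at P14 and 1.38% and 2.32% at P28. The share of A5G in miR-379-5p was 0.711% and 1.54% at P14 and 1.64% and 3.24% at P28, and that of A7G in miR-3099 was 15.0% and 28.4% at P14 and 30.9% and 39.3% at P28. Only A6G of miR-376c-3p was lower at P28 in both runs, at 27.1% and 32.1% at P14 and 23.7% and 28.4% at P28. With tags of the mature length only, its mean difference turned sign. Whether a change comes from editing, from a genomic variant or from the sequencing was not tested here. For A6G of miR-376b the study sequenced PCR products of P7 rat cortex, from cDNA and genomic DNA, and reported the change in the RNA. It also filtered its changes against a database of known variants.

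The A6G share bears on the fall of miR-376b-3p given above, since changed tags are not counted in its level. The changed form was at 591 and 168 TPM at P14 and at 452 and 148 TPM at P28 (-0.39 and -0.18). The sum of both forms was at 784 and 221.9 TPM at P14 and at 518 and 170 TPM at P28, a difference of -0.60 and -0.38 that is not past 2-fold, while the unchanged form is. The fall past 2-fold thus holds for the unchanged sequence and not for both forms together.

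**Figure D5:**
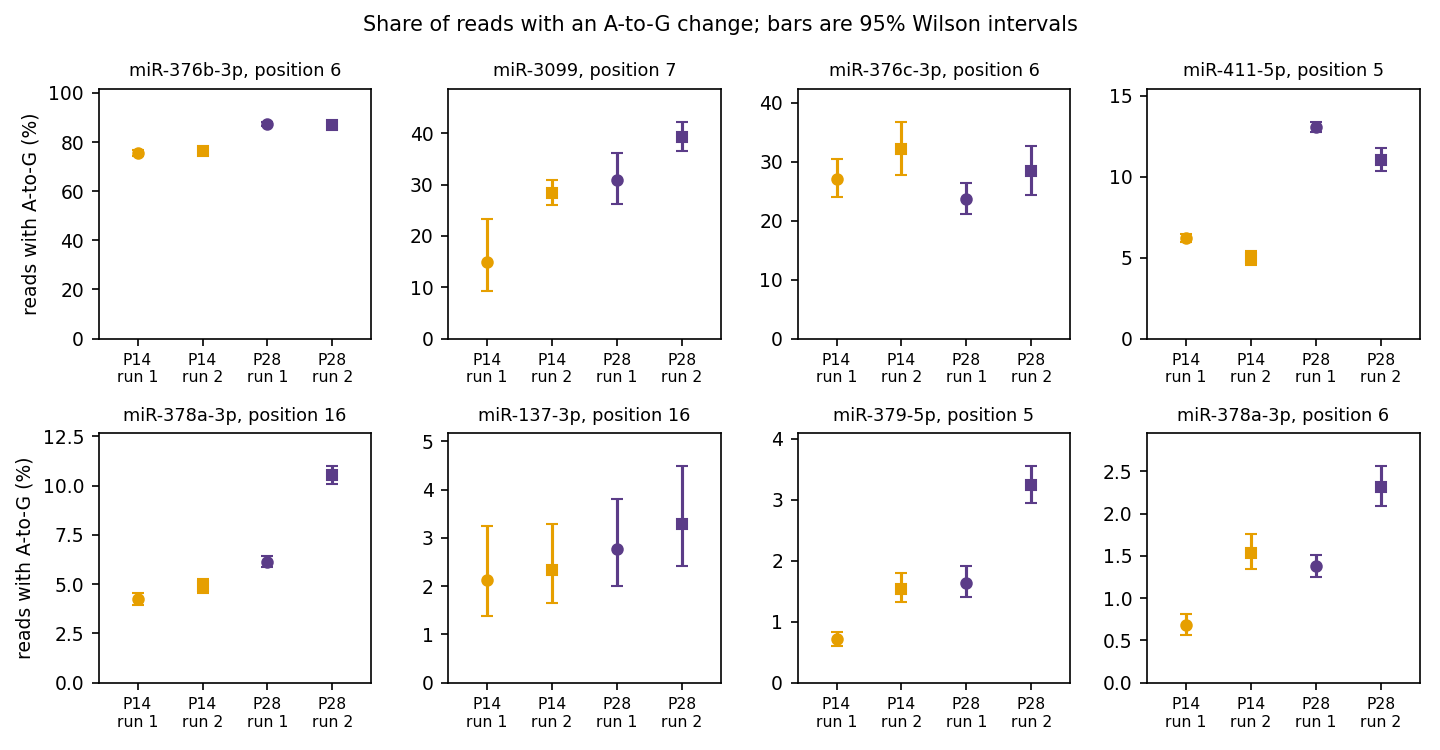
Share of reads (%) with an A-to-G change, counted on tags of all lengths, at 8 miRNA positions in P14 run 1, P14 run 2, P28 run 1 and P28 run 2, with 95% Wilson intervals for counting error as bars and a y axis from 0 in each panel. MiR-376b-3p, miR-411-5p and A16G of miR-378a-3p show both P28 libraries above both P14 libraries with separate intervals, whereas in the other 5 panels the intervals of a P14 and a P28 library overlap.

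At the level of single tags, 12626 had a mean of at least 10 reads, of which 2009 (15.9%) were higher and 989 (7.83%) were lower at P28 in both runs. Tags seen in both runs numbered 31952 at P14 and 53646 at P28. A tag missed in the shallow P14 run 1 counts as 0 in both P14 libraries, which favours calls of higher at P28. The part of this in the excess of rises was not tested. Among the 3291 tags matched to a known miRNA, 12.6% were higher and 3.74% were lower, and among the 9335 tags matched to none, 17.1% were higher and 9.28% were lower. Of 323 unmatched tags with a mean of at least 50 TPM, 57 were higher and 25 were lower. The 3 largest rises differed from a known miRNA by 1 base: G4A of let-7c-5p (4.37 and 3.50), A22T of miR-29a-3p (3.02 and 3.82) and T1C of miR-29a-3p (3.93 and 2.91). The largest fall was a 21-base tag near no known miRNA, with 9 and 5081 reads at P14 against 1 and 52 at P28, and thus almost all in P14 run 2. The 2 next falls were T6G of let-7c-5p in a 19-base tag (-2.92 and -2.77) and an 18-base tag (-2.24 and -2.16).

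Of 34 candidate miRNAs from the study's prediction list with enough reads, 3 were higher (8.82%) and 3 were lower (8.82%), 17.6% in all, close to the 9.38%, 6.17% and 15.5% of the known miRNAs. Of these 6, the 3 with the most reads were Candidate 86, with 17 and 41 reads at P14 against 17 and 18 at P28 (-1.03 and -1.24), Candidate 48, with 17 and 36 against 17 and 3 (-1.03 and -3.45), and Candidate 98, which was higher with 5 and 16 reads against 25 and 40 (1.18 and 1.23). The depth of the libraries differed, so equal reads in run 1 stand for unequal TPM. These 3 candidates lie between 0.181 and 3.47 TPM, where a few reads decide the call. Candidate 11, the most abundant candidate, was at 718 and 1672 TPM at P14 and at 561 and 490 TPM at P28 (-0.36 and -1.77), past 2-fold in run 2 alone.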

How the data were processed

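Per the labels, total RNA was taken up in TRIzol, small RNA was size-selected on a polyacrylamide gel, and adapter-ligated cDNA was sequenced on an Illumina Genome Analyzer II. The authors removed low-quality reads, adapters and ligation contaminants and deposited read counts per unique tag and run, with no mapping. The tags are at most 30 bases long in run 1 and 39 in run 2. The build and software of the tables are not needed for such tags.

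Counts were read with Python 3.11.15, numpy 2.4.6, pandas 2.3.3 and scipy 1.17.1, and figures drawn with matplotlib 3.10.9. Tags seen in both runs of a stage were divided by the clean reads of the library (4899010 to 16590379) and multiplied to TPM. A tag was given to a mature sequence when it had at least 18 bases, was identical over the common length, began within 3 bases of the mature 5′ end and ended at most 3 bases past the mature 3′ end. Tags that fit several miRNAs were counted for each (1.28% to 2.00% of reads). Mature sequences were 692 of RefSeq and 2 from the study's primers, and a listed miRNA without an arm was read as its more abundant arm. Log2 differences used a pseudocount of 0.5 read and miRNAs with a mean of at least 10 reads. No test was run. On simulated data all 1852 tags were matched, and of 186 simulated 4-fold changes among 373 miRNAs 168 (90.3%) were called, with 2 wrong calls. The simulated tags were built with ends that the matching rule allows, so their matching was set in advance. The simulated libraries held no run effect and no difference between tissue samples, so these counts are no error rates for the data.

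Named miRNAs were the 12 largest rises and falls of at least 50 TPM by the smaller run difference, the 10 most abundant, those with primers (of 31 compared, 5 were higher and 5 lower, beside 9.38% and 6.17% of all 373), list members by example, the 3 called candidates with most reads, the 3 largest rises and falls among unmatched tags, and A-to-G changes of miR-376b, miR-378 and miR-137 or with at least 1% and 50 reads in both runs of a stage. Of 9 changes that passed that limit, 2 were left out because the tag is also 1 base from another miRNA. Other names were chosen after their values were seen. The members and lists were chosen with earlier results of these data known. Alternatives were each run alone, summed runs, other scales, pseudocounts, filters, folds and matching rules, and tags of either run.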

Additional observations from a re-analysis of the deposited data

How the results depend on the processing

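No paired test was possible because each stage is 1 tissue sample and no test can be made. Averaging the differences within runs, with the run as a replicate block, is the mean of the values reported above, so it keeps the calls by construction and gave 2.97 for miR-132-3p and -4.54 for miR-296-3p.

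Against 35 known miRNAs higher and 23 lower, summing the reads of both runs gave 65 and 37, no filter on reads 58 and 46, a limit of 1.5-fold 60 and 37, a limit of 4-fold 12 and 4, and a single run 63 to 77 and 35 to 48. A mean of at least 100 reads left 22 higher, and tags identical to the mature sequence 7 lower. Against 2009 tags higher and 989 lower, summed runs gave 3965 and 2327, a pseudocount of 1 TPM 854 and 324, no filter 16357 and 11785, at least 100 reads 398 and 180, a limit of 4-fold 914 and 281, and a single run 3505 to 5116 and 1965 to 3530, and a limit of 1.5-fold gave 1531 lower. Of the 58 calls, 52 remained when the median difference was set to 0 (29 higher and 26 lower), 56 on the scale of miRNA reads, 51 with the mature 5′ end only, 47 with tags of either run, 45 with the pseudocount of 1 TPM and 26 with identical tags only. With identical tags only, miR-338-3p (0.50, with opposite signs in the runs), miR-672-5p (-0.09), miR-301a-5p (-1.22) and miR-488-5p (-1.12) were no longer called, where the last 2 missed 2-fold in 1 run. With the median set to 0, miR-23a-3p (0.994 in run 2), miR-344b-5p (0.948 in run 2) and let-7d-3p (0.961 in run 1) missed 2-fold in that run. Let-7d-3p also lost its call on the scale of miRNA reads, with the pseudocount of 1 TPM, with identical tags and with the mature 5′ end only. The other 15 of the 22 miRNAs of at least 50 TPM kept their call in every alternative that gave a value except the limit of 4-fold, which 7 of the 22 passed.

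The median over miRNAs moved the mean difference in mature 5′ ends from 0.296 to 0.122 percentage points and that in mature 3′ ends from 2.67 to 0.734, and within a run it turned the sign of the first in run 1 (97.83% at P14, 97.69% at P28) and of the second in run 2 (16.596% and 16.555%). With tags of the mature length only, the A-to-G difference between stages was 17.8 points for miR-376b-3p (11.3 with all lengths), 14.1 for miR-411-5p (6.47), 0 for miR-137-3p (0.801), 39.6 for miR-3099 (13.5, and 9.77 with tags of either run), 1.005 for A6G of miR-376c-3p (-3.56), 0.435 and 0.491 for A6G and A16G of miR-378a-3p (0.738 and 3.77) and 1.86 for miR-379-5p (1.31). The call for miR-137-3p and the direction for miR-376c-3p thus depend on the tags counted. The P14 run 1 library, with 4899010 reads, limits every value under a few TPM.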

Other observations

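The share of reads with 1 substitution differed between the runs at P14. Over 7 abundant miRNAs, chosen after the values were seen, it was 5.58% to 11.8% (median 7.68%) in P14 run 1, 2.04% to 2.92% (median 2.32%) in P14 run 2, 2.90% to 14.9% (median 3.45%) in P28 run 1 and 3.25% to 4.41% (median 3.54%) in P28 run 2. The tag of miR-128-3p with G6T was at 1725 TPM in P14 run 1, against 109 TPM in P14 run 2 and 208 and 171 TPM at P28. The tag of miR-219a-2-3p with C16A was at 257 and 1252 TPM in run 1 of P14 and P28, but at 1.71 and 3.19 TPM in run 2.

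One substitution recurred in several let-7 members in both runs. Tags of let-7f-5p with G4A were at 15.5 and 17.3 TPM at P14 and at 109 and 178 TPM at P28, with shares of 0.0255% and 0.0230% at P14 and 0.236% and 0.195% at P28. Of the 12 largest rises among the abundant unmatched tags, 11 were 1 substitution from a known miRNA, and of the 12 largest falls 5 were.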
